A study of Mus musculus with 22 samples.

Results

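The comparison of *Phf8* KO with WT ventral striatum (STR) rests on 6 of the 22 RNA libraries of the study, 3 STR libraries per genotype, taken by the tissue and genotype in their labels. The mice of both groups were 2 months old and on a B6x129SvJ background, and no treatment or second allele is given for either group. The KO allele lacks exons 7 and 8 of *Phf8*, a gene on the X chromosome. The deletion was made with Cre in embryonic stem cell clones that were then injected into blastocysts, so it does not depend on a tissue-specific promoter, and the line was kept on a mixed background. The labels do not say whether a library came from 1 animal or from a pool, so that p-values measure the spread between these libraries. The study also sequenced prefrontal cortex (PFC), 3 libraries per genotype of the same age and background, and these are used where a striatal result is set beside another brain region.

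PHF8 is a histone demethylase that removes methyl groups from histone H3 lysine 9, H3 lysine 27 and H4 lysine 20, marks found on silent genes, and it binds near the start sites of many active genes. The ventral striatum holds the nucleus accumbens, in which most neurons are GABAergic projection neurons with dopamine receptors, and it adjoins the septum, the pallidum, the basal forebrain and, behind and below, the hypothalamus. Hypothalamic neurosecretory neurons make oxytocin and vasopressin, from the genes *Oxt* and *Avp*, and need the transcription factors encoded by *Otp* and *Sim1* to form.

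The deleted exons are shown because they define the KO allele. In GRCm38 they lie on chromosome X, plus strand, exon 7 at chrX:151554134-151554320 and exon 8 at chrX:151555973-151556135, and both are coding sequence. In GENCODE M21, 7 of 9 protein-coding models of *Phf8* contain exactly these exons. Exon 7 is 187 bases and exon 8 is 163 bases long, together 350 bases, which is not a multiple of 3. The 9 bases in capitals hold the codons of the histidine and the aspartate with which the catalytic JmjC domain binds iron.
*Phf8* exon 7: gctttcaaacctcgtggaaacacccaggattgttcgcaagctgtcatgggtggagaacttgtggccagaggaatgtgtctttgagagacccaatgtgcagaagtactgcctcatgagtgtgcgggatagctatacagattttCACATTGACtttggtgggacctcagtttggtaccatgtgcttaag
*Phf8* exon 8: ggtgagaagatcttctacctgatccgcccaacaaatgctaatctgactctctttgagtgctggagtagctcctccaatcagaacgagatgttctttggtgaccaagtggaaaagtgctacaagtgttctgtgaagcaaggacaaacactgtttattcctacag
The remaining exons are still counted: exons 7 and 8 make up 3.76% of the 9318 bases of all annotated *Phf8* exons, so a count for the gene includes reads from transcripts that lack them.

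The 250 bases before the start sites of *Oxt*, *Avp* and the galanin gene *Gal* are shown because each of these neuropeptide genes was highest in the same KO library. Other neuropeptide genes, such as *Trh* and *Tac2*, were highest there as well. Sequences are from RefSeq (GRCm38.p6), 5′ to 3′ on the strand of the gene: *Oxt* on the plus strand at chr2:130575919-130576168, *Avp* on the minus strand at chr2:130582589-130582838 and *Gal* on the minus strand at chr19:3414545-3414794. Capitals mark matches on either strand to ACGTG (reverse complement CACGT), the core bound by SIM1 with its partner ARNT2, and to GGTCA (reverse complement TGACC), the half-site of many nuclear receptors. TAATTA, a common homeodomain core, was also searched. No match of one motif overlapped a match of another.
*Oxt* upstream: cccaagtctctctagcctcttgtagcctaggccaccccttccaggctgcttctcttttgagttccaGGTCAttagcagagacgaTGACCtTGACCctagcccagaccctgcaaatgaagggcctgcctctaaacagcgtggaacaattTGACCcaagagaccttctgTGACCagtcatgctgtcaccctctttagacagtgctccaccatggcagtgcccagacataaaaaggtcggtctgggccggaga
*Avp* upstream: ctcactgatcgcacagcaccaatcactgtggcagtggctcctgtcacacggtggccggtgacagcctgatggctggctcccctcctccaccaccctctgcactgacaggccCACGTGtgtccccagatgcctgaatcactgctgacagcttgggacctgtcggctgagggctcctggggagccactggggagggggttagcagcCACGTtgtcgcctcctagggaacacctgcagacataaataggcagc
*Gal* upstream: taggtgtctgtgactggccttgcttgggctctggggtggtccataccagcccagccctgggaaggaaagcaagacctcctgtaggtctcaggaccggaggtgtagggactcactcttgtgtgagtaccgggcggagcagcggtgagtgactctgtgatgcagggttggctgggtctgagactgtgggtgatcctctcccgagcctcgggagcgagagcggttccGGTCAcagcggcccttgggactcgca
*Oxt* held 5 matches to GGTCA, *Gal* held 1 and *Avp* none, while *Avp* held 3 matches to ACGTG, of which 2 overlap on opposite strands. TAATTA was in none of these 3 stretches. Among 32851 promoter stretches of the same length, 35.2% held GGTCA, 16.6% held ACGTG and 4.84% held TAATTA, so a match is a description of the letters and does not show a bound site.

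Between 7159094 and 8594441 reads per STR library were counted on genes, and the shares of ambiguous reads and mitochondrial counts differed little between libraries (2.52% to 2.66% and 0.195% to 0.228%). *Xist* was at most at 0.115 CPM and the Y-linked gene *Ddx3y* at 80.5 CPM or more in all 6 libraries. KO replicate 1 stood apart from the other 5 libraries in genes far above or below all others. Of the 16541 genes with at least 10 counts in a library, 96 were at least 2 times higher in KO replicate 1 than in every other library, against 5 to 30 genes for each of the other libraries, and 65 were at most at 0.5 times the lowest of the others, against 3 to 33. These ratios were taken on depth-scaled counts (CPM, with edgeR's TMM factors) plus 0.5. Over all genes the KO libraries differed from one another about equally: a chi-square of the counts of each pair gave 6.29 to 7.43 per degree of freedom for KO pairs, with 6.70 for KO replicates 2 and 3, and 3.07 to 4.63 for WT pairs. The main fold changes are given with and without KO replicate 1.

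*Phf8* was lower in every KO library. Its level was 57.2, 50.2 and 53.4 CPM in WT replicates 1 to 3 and 23.5, 23.3 and 15.3 CPM in KO replicates 1 to 3. The groups did not overlap, and KO replicate 3 was the lowest. The log2 fold change was -1.37 (SE 0.15), with an adjusted p-value of 0.0956 in edgeR's quasi-likelihood test (Benjamini-Hochberg adjusted), the smallest of all 15476 genes tested. Without KO replicate 1 it was -1.47, with an adjusted p-value of 0.0512 in the same edgeR test. Without KO replicate 3, the lowest, it was -1.20 with an adjusted p-value of 0.0145 in that edgeR test, which passes the threshold. Without WT replicate 1, 2 or 3 the adjusted p-values in that edgeR test were 0.464, 0.162 and 0.711. Without KO replicate 2 it was 0.0531. In PFC the 3 WT libraries were between 42.9 and 51.5 CPM and the 3 KO libraries between 16.4 and 23.2 CPM, with the same log2 fold change of -1.37 (adjusted p = 0.00193 in the edgeR test). Its closest relatives had smaller log2 fold changes in STR, 0.08 for *Phf2* and -0.22 for *Kdm7a*. Like *Phf8* with all 6 libraries, neither passed the threshold.

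No gene passed an FDR under 0.05 in STR by edgeR's quasi-likelihood test, 0 up and 0 down (0.0% in each direction). At an unadjusted p under 0.05 there were 878 genes up (5.67%) and 468 down (3.02%), and these shares are the background against which the gene groups below are read. The call depended on the test: edgeR's exact test on the same counts called 83 genes up (0.536%) and 21 down (0.136%), with 5.54% and 2.93% at an unadjusted p under 0.05. DESeq2 called 42 up (0.281%) and 18 down (0.121%), with 4.62% and 2.37% at an unadjusted p under 0.05. Levels in the 3 KO libraries were above every WT library for 7.57% of the genes tested and below every WT library for 5.87%. Without KO replicate 1 the quasi-likelihood test again called 0 genes. At an unadjusted p under 0.05 there were then 458 genes up (2.92%) and 325 down (2.07%), against 5.67% and 3.02% with all 6 libraries. On these 5 libraries DESeq2 called 10 genes up and 3 down, and edgeR's exact test called 29 up and 10 down. Because no gene passed the quasi-likelihood test with all 6 libraries, the genes below are described as higher or lower, by their values in each library.

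Genes high in 1 KO library were separated from genes high in all 3 by ratios of CPM + 0.5, a description with no test. Genes with the lowest KO library at least 1.2 times above the highest WT library numbered 180 of 16541 (1.09%). They were split into 149 (0.901%) in which KO replicate 1 was under 2 times the higher of the other KO libraries, here called even, and 31 (0.187%) in which it was 2 times or more above it, here called led by KO replicate 1. A further 65 genes (0.393%) were at least 2 times higher in KO replicate 1 than in all other libraries with at least one of the other KO libraries short of the 1.2-fold limit. In 9 of these 65 genes KO replicates 2 and 3 were nevertheless both above every WT library. Genes with the highest KO library at least 1.2 times below the lowest WT library numbered 81 (0.49%). At the edges, *Stom* was inside the first limit at a ratio of 1.2003 and *Lgals8* just outside at 1.198, and *Lhx1* was inside the limit for led genes at 2.04 and *Gpr165* just outside at 1.95.

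**Figure D1:**
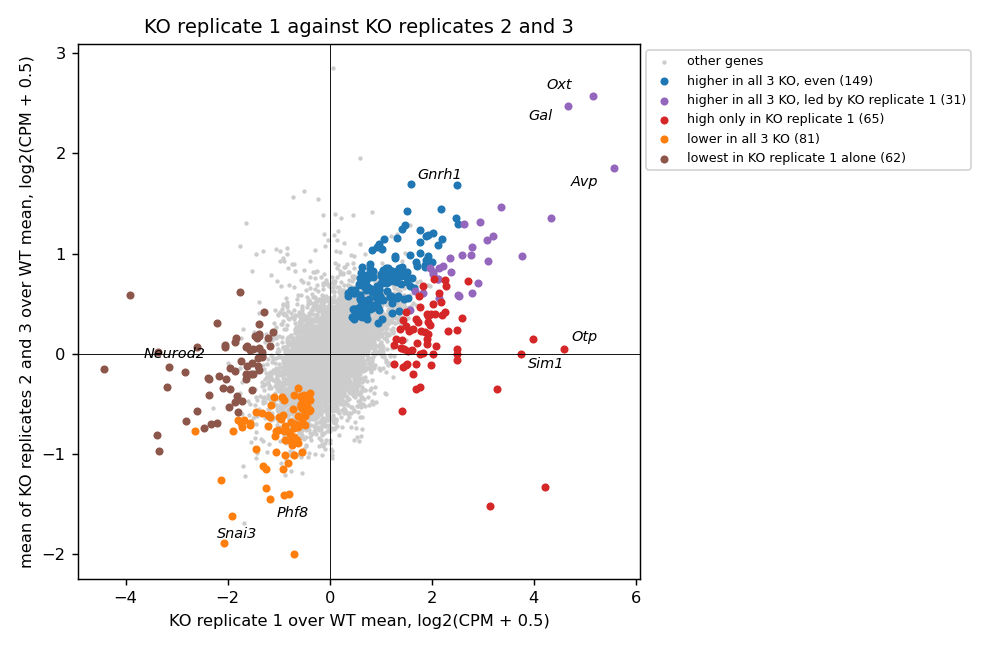
Each point is a gene, with its log2 ratio to the WT mean in KO replicate 1 (x axis) and in the mean of KO replicates 2 and 3 (y axis), on log2(CPM + 0.5) values; colours mark the classes of genes and grey the other genes. Most of the 65 genes high only in KO replicate 1, such as *Otp* and *Sim1*, lie to the right near 0 on the y axis, and the 149 even genes, such as *Gnrh1*, are above 0 on both axes.

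Among the genes high only in KO replicate 1, large ratios were found for hypothalamic transcription factors and hormones of the anterior pituitary. *Otp* and *Sim1* were the genes by which this library was singled out beforehand, so their place in the class was fixed in advance. *Otp* was at 0.575, 0.401 and 0.138 CPM in WT, against 20.7, 0.519 and 0.289 CPM in KO replicates 1 to 3, from 160 counts in KO replicate 1 and at most 5 in any other library. *Sim1* had 48 counts in KO replicate 1 and 0 in the other 5 libraries, which puts it at 6.20 CPM and at least 14.3-fold above the level of 3 counts in any one of them. *Prdm13*, a transcription factor gene used in the hypothalamus and spinal cord, also had counts in KO replicate 1 alone (12 counts), at least 3.58-fold above that level. Counts of 0 limit the level only to 3 counts per library, between 0.345 and 0.433 CPM, and cover counting error only.

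*Six6*, a factor of the anterior ventral hypothalamus and pituitary, reached 2.45 CPM in KO replicate 1, with at most 0.389 CPM elsewhere. *Uncx* and *Nr2f2*, which encode a homeodomain factor and a nuclear receptor of the developing forebrain, were at 4.13 and 56.3 CPM in KO replicate 1. The highest of the other libraries held 0.778 CPM of *Uncx* and 13.5 CPM of *Nr2f2*. Neuropeptide genes of the same class were *Ghrh*, growth hormone-releasing hormone (2.07 against at most 0.519 CPM), *Ucn3*, urocortin 3 (4.005 against at most 0.778 CPM), and *Tac2*, neurokinin B (46.0 against at most 19.1 CPM). *Slc17a6*, the vesicular glutamate transporter of thalamic and hypothalamic neurons, was at 87.5 CPM in KO replicate 1, 37.1 CPM in KO replicate 3 and between 18.8 and 26.2 CPM in the others. Each was highest in KO replicate 1, and *Slc17a6* in KO replicate 3 and *Uncx* and *Ucn3* in KO replicates 2 and 3 were also above the WT range. So were *Nr2f2*, *Six6* and *Ghrh* in KO replicate 2 (13.5, 0.389 and 0.519 CPM). edgeR's expression filter, which needs counts in 3 libraries, left 28 of the 65 genes to test, with *Otp* and *Sim1* among those removed.

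Pituitary hormone genes gave a second signal in the same library, in a list of 8 genes added after the values were seen, of which 7 were in the table. *Prl*, prolactin, was at 0.575, 1.07 and 2.63 CPM in WT, against 35.5, 0.389 and 0.144 CPM in KO replicates 1 to 3. *Gh*, growth hormone, was at 3.57, 7.90 and 23.8 CPM in WT, against 107.5, 5.71 and 1.88 CPM in KO. *Cga* and *Fshb*, subunits of the gonadotropins, reached 8.78 and 5.68 CPM in KO replicate 1, with at most 0.289 CPM in the other libraries. WT replicate 3 held the next highest levels of *Gh* and *Prl*, while KO replicates 2 and 3 did not exceed the highest WT library for *Gh*, *Prl* or *Pomc*. Summed over the list, the level was 178.4 CPM in KO replicate 1, 34.2 CPM in WT replicate 3 and 6.35 to 15.1 CPM in the other 4 libraries. The reads of *Cga* cannot be told apart from those of its antisense neighbour *Platr9* without strand.

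**Figure D2:**
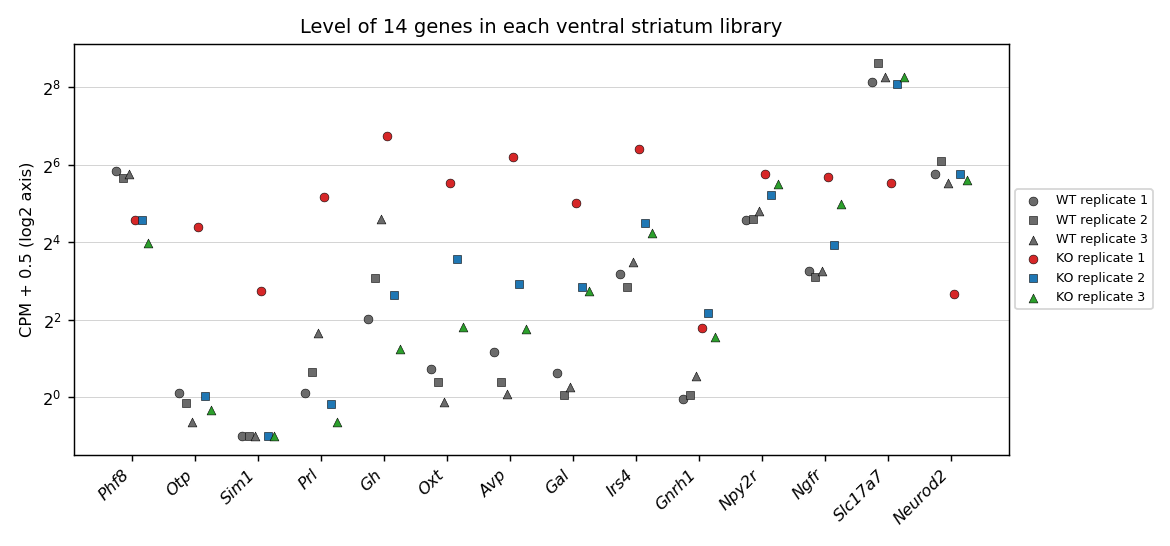
Level of 14 genes in each STR library, as CPM + 0.5 on a log2 axis, with 1 point per library (grey for WT, red, blue and green for KO replicates 1, 2 and 3). *Otp*, *Sim1*, *Prl* and *Gh* are high in KO replicate 1 alone, *Oxt*, *Avp*, *Gal* and *Irs4* are high in all KO libraries and highest in replicate 1, and *Slc17a7* and *Neurod2* are low in KO replicate 1 alone.

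Of 8 hypothalamic neuropeptide genes with at least 10 counts in a library, 4 were among the 31 genes led by KO replicate 1. A further 2 were high only in KO replicate 1 and 1 was even. Over all genes these shares were 0.187%, 0.393% and 0.901%. A gene can reach 10 counts through a high KO level alone, so these counts do not stand for the list. *Oxt* was at 1.15, 0.803 and 0.415 CPM in WT, against 45.9, 11.3 and 3.03 CPM in KO replicates 1 to 3, and *Avp* was at 1.73, 0.803 and 0.554 CPM in WT, against 72.7, 7.13 and 2.89 CPM in KO. For both genes KO replicate 3 was the lowest of the KO libraries, and it was still above every WT library. *Gal*, galanin, was at 1.04, 0.535 and 0.692 CPM in WT, against 31.7, 6.74 and 6.20 CPM in KO. *Trh*, thyrotropin-releasing hormone, was at 9.64 to 12.7 CPM in WT, against 68.2, 16.5 and 18.5 CPM in KO. The class also held genes outside the lists, such as *Sytl4* at 47.7, 6.74 and 4.47 CPM in KO replicates 1 to 3. In 18 of the 31 genes KO replicate 2 was above KO replicate 3.

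Without KO replicate 1 the log2 fold changes of these peptide genes were smaller: 3.05 in place of 4.25 for *Gal*, 3.13 in place of 4.61 for *Oxt*, 2.23 in place of 4.69 for *Avp* and 0.60 in place of 1.59 for *Trh*. *Irs4*, an insulin receptor substrate strongly expressed in the hypothalamus, was at 6.69 to 10.8 CPM in WT, against 84.5, 22.2 and 18.3 CPM in KO, and its log2 fold change was 1.22 without KO replicate 1 and 2.27 with it. Some reads of *Irs4* may belong to *Gm15295* on the opposite strand. *Agt*, angiotensinogen, which astrocytes of the hypothalamus make, was at 20.3, 15.4 and 21.4 CPM in WT, against 100.1, 37.1 and 37.7 CPM in KO. The receptor genes *Prlr* (prolactin), *Ghsr* (ghrelin) and *Cckar* (cholecystokinin) were in the same class, with 37.9, 3.23 and 13.4 CPM in KO replicate 1 and at most 9.96, 1.15 and 2.74 CPM in every other library.

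Transcription factor genes were also led by KO replicate 1. *Fezf1*, a factor of the ventromedial hypothalamus, had 64 counts (8.27 CPM) there and 5 and 6 counts in KO replicates 2 and 3, against 3 counts in 1 WT library and 0 in the others. *Lhx5* was at 7.88, 2.07 and 1.44 CPM in KO replicates 1 to 3 and at most at 0.690 CPM in WT. *Hmx2* and *Hmx3*, neighbours on chromosome 7 that act in hypothalamic neurons, had identical counts of 13, 3 and 2 in KO replicates 1 to 3 and 0 in every WT library, too few to place KO replicates 2 and 3 above WT. Neither their identical counts nor the split of reads between them was examined further. The subunit genes *Gabrq* and *Gabre* of the GABA-A receptor, neighbours on chromosome X, were at 76.7 and 29.2 CPM in KO replicate 1. In KO replicates 2 and 3 they were between 6.49 and 25.9 CPM, above the WT range of each gene.

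Of the 13 genes that DESeq2 called without KO replicate 1, 4 were of the class led by that library (*Gal*, *Oxt*, *Agt* and *Irs4*), 6 were even genes (*Ngfr*, *Itih3*, *Gpr165*, *Grin3a*, *Baiap3* and *Wdr6*) and 3 were lower in KO (*Phf8*, *Dmkn* and *Cplx3*). *Gal* had a log2 fold change of 3.08 there (DESeq2 adjusted p = 0.00219) and *Oxt* of 3.16 (DESeq2 adjusted p = 0.0128). The classes already required KO replicates 2 and 3 to lie on 1 side of every WT library, so these p-values are not separate support for the classes. On the same 5 libraries 0 genes passed edgeR's quasi-likelihood test.

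The 149 even genes held peptide, transcription factor and receptor genes together with genes of general function. Their median log2 ratio to the WT mean was 1.003 in KO replicate 1 and 0.70 in KO replicates 2 and 3, against -0.01 and 0.01 over all 16541 genes. KO replicate 1 was the highest library in 115 of them, KO replicate 2 in 13 and KO replicate 3 in 21. *Gnrh1*, gonadotropin-releasing hormone, was at 0.460, 0.535 and 0.969 CPM in WT, against 2.97, 4.02 and 2.45 CPM in KO, and was one of the genes in which KO replicate 2 was highest. Its log2 fold change was 2.27 (SE 0.39), and 2.30 without KO replicate 1. *Nkx2-1*, a homeodomain factor of the ventral forebrain, was at 8.70 to 11.2 CPM in WT, against 23.1, 18.2 and 16.0 CPM in KO. *Lhx8*, needed for cholinergic neurons of the basal forebrain, was at 16.5 to 22.8 CPM in WT, against 54.1, 32.3 and 38.7 CPM in KO.

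Of the receptor genes with at least 10 counts in a library, even genes were 6 of 37 neuropeptide receptors and 3 of 44 glutamate, GABA or glycine receptor subunits. Of 12 serotonin receptors, 1 was even. Over all genes the share was 0.901%. *Ngfr*, the p75 neurotrophin receptor of basal forebrain cholinergic neurons, was at 9.09, 8.03 and 8.99 CPM in WT, against 51.0, 14.7 and 31.3 CPM in KO. *Glra3*, a glycine receptor subunit, was at 1.496, 1.204 and 1.25 CPM in WT, against 7.75, 2.98 and 5.92 CPM in KO. For both genes KO replicate 2 was the lowest of the KO libraries, whereas KO replicate 3 was the lowest for *Oxt* and *Avp*. *Npy2r*, a neuropeptide Y receptor, was at 23.4 to 27.4 CPM in WT, against 54.1, 37.1 and 44.6 CPM in KO (log2 fold change 0.87, or 0.71 without KO replicate 1, SE 0.14, adjusted p = 0.262 in edgeR's quasi-likelihood test). *Mc4r*, the melanocortin 4 receptor, was at 7.90 to 8.86 CPM in WT, against 15.1, 12.6 and 16.9 CPM in KO, and *Grin3a*, an NMDA receptor subunit, at 71.3 to 82.3 CPM in WT, against 113.3, 100.9 and 145.6 CPM in KO. In *Mc4r* and *Grin3a* KO replicate 3 was the highest library.

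Among the genes with the smallest p-values in STR were genes whose level hardly differed between KO libraries. *Patj*, a polarity scaffold, was at 42.6 to 46.4 CPM in WT, against 61.5, 58.1 and 62.3 CPM in KO. *Slc44a5*, a choline transporter-like protein, was at 19.1 to 21.3 CPM in WT, against 31.01, 30.1 and 31.2 CPM in KO. *Samd14* was at 96.8 to 105.3 CPM in WT, against 139.7, 127.6 and 128.9 CPM in KO. The log2 fold changes of these 3 genes were 0.46, 0.60 and 0.40 with KO replicate 1, and 0.45, 0.59 and 0.35 without it, with adjusted p-values of 0.262, 0.262 and 0.291 in edgeR's quasi-likelihood test. *Cdc25a*, a phosphatase that drives the cell cycle, was at 9.82 to 12.3 CPM in WT, against 22.2, 18.5 and 19.2 CPM in KO. *Alox8*, a lipoxygenase, was at 3.04 to 5.22 CPM in WT, against 16.5, 9.85 and 10.7 CPM in KO. The transcript *AI606473* had the smallest adjusted p-value among genes higher in KO, 0.175 in that edgeR test, from 4.28 to 5.75 CPM in WT to 18.7, 11.9 and 13.6 CPM in KO.

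**Figure D3:**
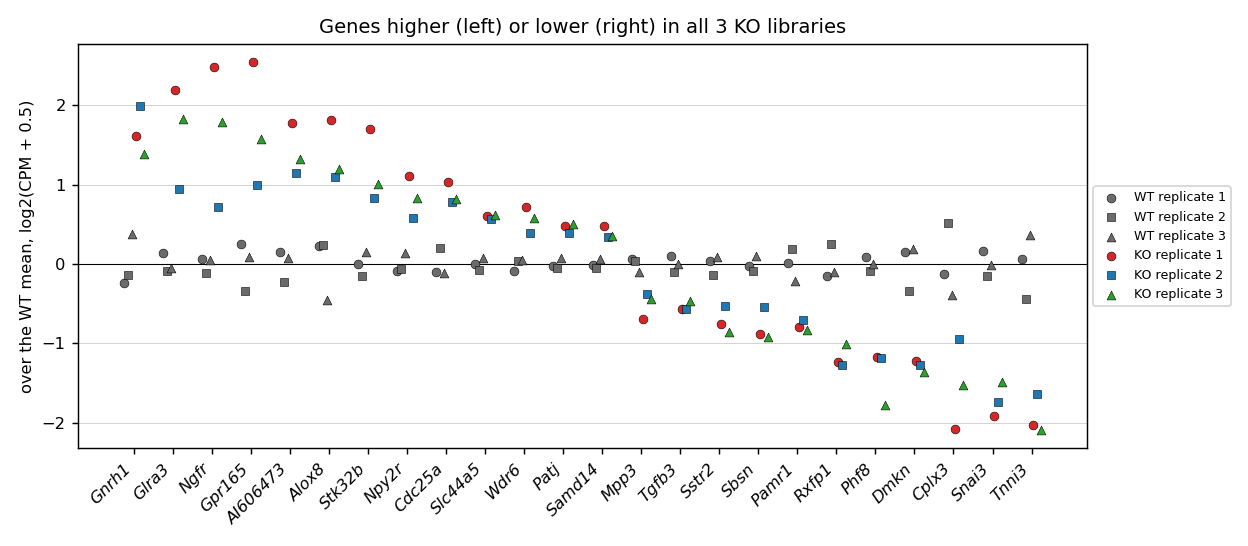
Log2(CPM + 0.5) of 24 genes in each STR library relative to the WT mean of the gene (1 point per library, colours as for KO replicates 1, 2 and 3). On the left, *Gpr165* and *Ngfr* spread widely between KO libraries while *Slc44a5*, *Patj* and *Samd14* do not, and on the right all 3 KO libraries lie below the WT libraries, with KO replicate 1 lowest for *Cplx3*.

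The 81 genes lower in all 3 KO libraries had a median log2 ratio to the WT mean of -0.80 in KO replicate 1 and -0.70 in the other KO libraries, and KO replicate 1 was the lowest in 35 of them. *Tnni3*, a troponin subunit, was at 4.95, 3.35 and 6.23 CPM in WT, against 0.775, 1.17 and 0.721 CPM in KO, and *Snai3*, a zinc finger factor, was at 3.80, 2.94 and 3.32 CPM in WT, against 0.517, 0.648 and 0.866 CPM in KO. Both had an adjusted p-value of 0.175 in edgeR's quasi-likelihood test, with log2 fold changes of -2.42 (SE 0.36) and -2.30 (SE 0.34), or -2.33 and -2.14 without KO replicate 1. *Tnni3* shares exon sequence with *Dnaaf3* on the same strand. The epidermal genes *Dmkn* and *Sbsn*, which are neighbours on chromosome 7, were lower together: *Dmkn* at 13.1 to 19.1 CPM in WT and 6.20 to 6.85 CPM in KO, and *Sbsn* at 24.6 to 28.1 CPM in WT and 13.6 to 17.8 CPM in KO.

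Signalling genes were among the lower genes. *Sstr2*, a somatostatin receptor, was at 35.6, 31.3 and 36.8 CPM in WT, against 20.2, 23.7 and 18.9 CPM in KO. *Rxfp1*, the relaxin receptor, was at 8.52, 11.4 and 8.86 CPM in WT, against 3.75, 3.63 and 4.47 CPM in KO. Each of these receptors had similar levels in the 3 KO libraries, and leaving out KO replicate 1 moved the log2 fold change from -0.72 to -0.70 for *Sstr2* and from -1.28 to -1.25 for *Rxfp1*. *Bdnf*, brain-derived neurotrophic factor, which cortical neurons deliver to the striatum, was at 44.1, 43.2 and 31.3 CPM in WT, against 11.0, 24.5 and 25.3 CPM in KO. *Cplx3*, a complexin of subplate and deep cortical neurons, was at 19.3, 30.6 and 16.1 CPM in WT, against 4.65, 10.8 and 7.07 CPM in KO. *Bdnf* and *Cplx3* were lowest in KO replicate 1, the library in which cortical genes were low.

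In KO replicate 1 alone, genes of cortical excitatory neurons were low, in a class of 62 genes (0.375% of 16541) that was defined after the values were seen as at most 0.5 times the lowest of the other 5 libraries and not lower in all 3 KO libraries. *Slc17a7*, the vesicular glutamate transporter of cortical neurons, was at 283.1, 397.6 and 304.7 CPM in WT, against 45.5, 273.2 and 307.6 CPM in KO. *Neurod2*, *Neurod6*, *Tbr1* and *Emx1*, transcription factors of cortical projection neurons, were in the same class, with 5.81, 2.45, 21.4 and 0.517 CPM in KO replicate 1. In KO replicates 2 and 3 these factors were between 6.78 CPM (*Emx1*) and 88.3 CPM (*Tbr1*), within or close to the WT range of each gene. The transcript *Gm11549*, outside the lists, was at 0.775 CPM in KO replicate 1 and 21.9 to 32.1 CPM in the other libraries. Over the 9 genes of the cortical projection neuron list the summed level was 561.0, 768.7 and 576.6 CPM in WT and 186.9, 553.3 and 609.9 CPM in KO. KO replicate 1 was far below the other libraries and KO replicates 2 and 3 were close to or within the WT range, and the median log2 fold change of the list was -0.60 with KO replicate 1 and -0.14 without it.

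**Figure D4:**
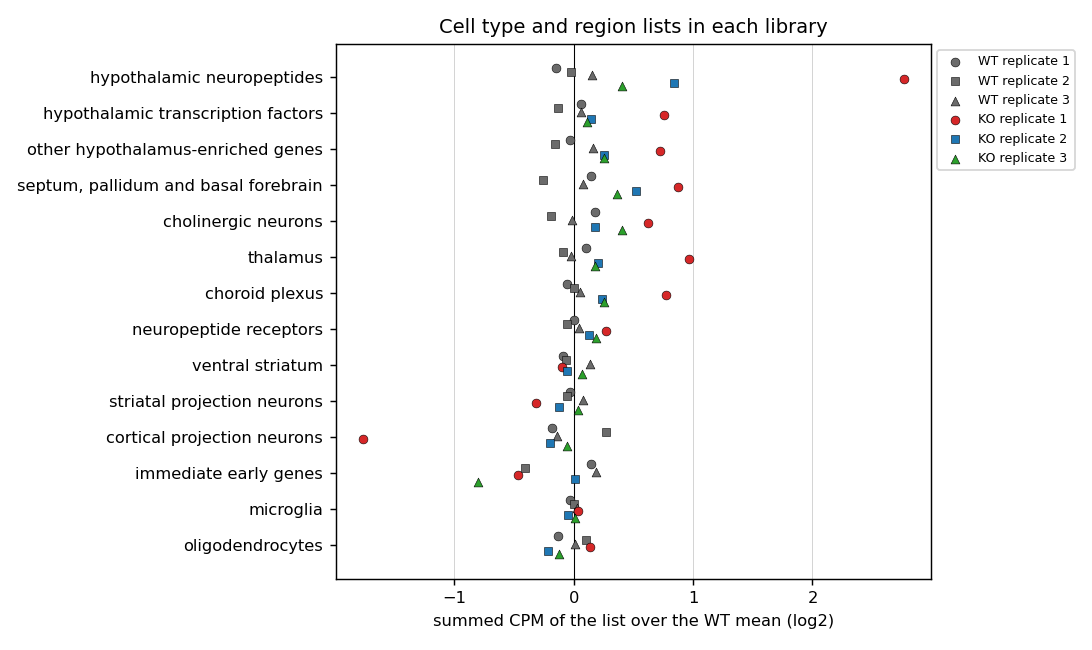
Summed CPM of 14 gene lists in each STR library, as log2 ratio to the WT mean of the list (x axis, 1 point per library). Hypothalamic neuropeptides reach 2.77 and cortical projection neuron genes -1.77 in KO replicate 1, septum, pallidum and basal forebrain genes are above WT in all 3 KO libraries, and ventral striatum and microglia genes stay near 0 while striatal projection neuron genes are at -0.31 in KO replicate 1.

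Lists of region and cell type markers, chosen with earlier results of these data known, also set KO replicate 1 apart. Of 14 hypothalamic neuropeptide genes, 8 reached 10 counts in a library and 7 were tested, of which 5 had an unadjusted p under 0.05 up and 0 down (5.67% and 3.02% over all genes), with a median log2 fold change of 2.27, or 2.23 without KO replicate 1, against 0.00 over all genes. Genes that pass the expression filter through a high KO level must differ, so neither this count nor these medians stand for the list. Their summed level was 35.6, 38.9 and 43.9 CPM in WT and 268.6, 70.8 and 52.2 CPM in KO replicates 1 to 3, higher than WT in all 3 KO libraries. The genes not tested included those of hypocretin (*Hcrt*) and melanin-concentrating hormone (*Pmch*) at under 1 CPM in every library and *Kiss1*, which the table lacked. Hypothalamic transcription factors summed to 95.8 to 110.0 CPM in WT and to 177.4, 116.4 and 113.8 CPM in KO. That list holds *Otp* and *Sim1*, by which KO replicate 1 was singled out (20.7 and 6.20 CPM there). Its sum is therefore not separate support. Other genes enriched in hypothalamus, among them *Baiap3*, *Dlk1*, *Ecel1*, *Hap1* and *Magel2*, were tested as 14 of 14, with 11 up and 0 down at an unadjusted p under 0.05. Their median log2 fold change was 0.65, and 0.28 without KO replicate 1. In PFC the median was 0.39 for these genes, -0.07 for the neuropeptides and -0.26 for the transcription factors.

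The lists for septum, pallidum and basal forebrain, cholinergic neurons, thalamus and choroid plexus had summed levels above WT in every KO library. For cholinergic genes the margin in KO replicate 2 was small. Summed ependymal genes were within the WT range of 18.1 to 31.4 CPM in KO replicate 3, at 23.7 CPM. Single genes above WT in every KO library were 5 of 11 for septum, pallidum and basal forebrain and 1 of 3 for cholinergic neurons. They were 1 of 7 for thalamus and 3 of 6 for choroid plexus, against 7.57% of all genes tested. The 11 genes for septum, pallidum and basal forebrain summed to 301.8, 229.0 and 288.2 CPM in WT and to 500.5, 392.4 and 352.2 CPM in KO. At an unadjusted p under 0.05, 6 of them were up and 0 down. Over all genes tested 5.67% were up and 3.02% down, which also applies to the counts of the next lists. The 11 genes had a median log2 fold change of 0.48, or 0.36 without KO replicate 1. Of these, *Lhx6* was at 56.1 to 65.5 CPM in WT, against 117.8, 73.4 and 82.7 CPM in KO, whereas *Zic1* and *Zic2* in KO replicate 3 were within the WT range. Cholinergic genes summed to 181.7 to 234.2 CPM in WT and to 320.0, 234.7 and 274.7 CPM in KO, with 2 of 3 tested genes up. Thalamic genes summed to 117.1 to 133.8 CPM in WT and to 243.9, 143.5 and 140.8 CPM in KO, with 1 of 7 up. Choroid plexus genes summed to 85.8 to 92.6 CPM in WT and to 152.4, 105.7 and 106.8 CPM in KO, but *Ttr*, the defining gene of that tissue, was highest in WT replicate 2 (31.7 CPM). In whole tissue, more cells of a type in a dissected piece and more RNA per cell cannot be told apart, and the part of the dissection in these differences was not tested.

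The labelled tissue was present in every library. The 19 genes of striatal projection neurons summed to 5836, 5727 and 6292 CPM in WT and to 4790, 5467 and 6094 CPM in KO replicates 1 to 3, and the 5 ventral striatum genes to 622.9 to 727.2 CPM in WT and 618.6 to 694.8 CPM in KO. KO replicate 1 was the lowest library for projection neuron genes. Of the 19 genes, 0 were up and 4 down at an unadjusted p under 0.05 (*Rgs9*, *Rasd2*, *Gpr6* and *Foxp1*, with log2 fold changes from -0.29 to -0.22). Over all genes 5.67% were up and 3.02% down. The median of the 19 genes was -0.14, or -0.04 without KO replicate 1. The dopamine receptor genes *Drd1* and *Drd2* were at 198.9 to 235.1 and 98.0 to 109.9 CPM in WT, against 170.1 to 219.5 and 79.3 to 102.0 CPM in KO. The lists of microglia (10 genes), vessels (11 genes), oligodendrocytes (12 genes) and blood (5 genes) had 0 genes in either direction at an unadjusted p under 0.05 by the quasi-likelihood test of edgeR, and their medians lay between -0.25 and -0.03. Astrocyte genes had 3 of 10 up, *Gja1*, *Gjb6* and *Agt*, and meningeal genes 0 of 5, although their summed level was 206.9 CPM in KO replicate 2 and 50.2 to 98.2 CPM in the other libraries.

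Receptors for transmitters and peptides were listed apart. Of 35 neuropeptide receptor genes tested, 13 were up and 2 down at an unadjusted p under 0.05 (against 5.67% and 3.02% of all genes), with a median log2 fold change of 0.40, and 0.29 without KO replicate 1. The 2 down were *Sstr2* and *Rxfp1*. Those up included *Tacr3*, the neurokinin B receptor (14.6 to 18.9 CPM in WT and 43.9, 23.7 and 33.6 CPM in KO), *Hcrtr2*, a hypocretin receptor (5.29 to 6.96 CPM in WT and 12.8, 8.95 and 9.81 CPM in KO), and *Oprl1*, the nociceptin receptor (73.1 to 85.1 CPM in WT and 122.7, 95.4 and 99.0 CPM in KO). All 3 were highest in KO replicate 1 with no overlap between genotypes. The oxytocin receptor *Oxtr* was at 19.1 to 39.5 CPM in WT, against 25.3 to 42.7 CPM in KO, with overlapping groups.

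Of 43 glutamate, GABA and glycine receptor subunits tested, 9 were up and 3 down at an unadjusted p under 0.05 (against 5.67% and 3.02% of all genes). Their median log2 fold change was 0.13, or 0.12 without KO replicate 1. *Glra2*, a glycine receptor subunit, was at 39.1, 44.3 and 48.6 CPM in WT, against 68.1, 56.5 and 69.5 CPM in KO, and the 3 down were *Grin2c*, *Grik2* and *Gabrd*, with log2 fold changes of -0.32, -0.25 and -0.33. Of 12 serotonin receptor genes tested, 2 were up, *Htr7* and *Htr1a*, against 5.67% of all genes. *Htr7* was at 21.2, 19.0 and 19.5 CPM in WT, against 45.6, 28.5 and 30.7 CPM in KO, and *Htr1a* was at 22.7, 33.1 and 30.3 CPM in WT, against 44.3, 34.4 and 46.3 CPM in KO. *Htr1b* and *Htr2a* had log2 fold changes of 0.08 and 0.15 in STR, and 0.84 and 0.65 in PFC.

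Immediate early genes, which neuronal activity induces within minutes, had 0 up and 3 down of 14 at an unadjusted p under 0.05 (*Fosb*, *Egr1* and *Fosl2*). Over all genes 5.67% were up and 3.02% down. The median log2 fold change of the list was -0.39, or -0.34 without KO replicate 1. The groups overlapped: the summed level was 1334, 912.1 and 1375 CPM in WT and 872.0, 1217 and 691.4 CPM in KO, so that WT replicate 2 was close to KO replicate 1. *Npas4* was at 24.5 to 51.6 CPM in WT, against 6.20 to 47.8 CPM in KO. Of 29 genes for histone demethylases and for methyltransferases of H3K9 and H4K20, 0 were up and 2 down, against 3.02% of all genes down. The 2 were *Phf8* itself and the Y-linked *Kdm5d*. *Kdm5d* was at 34.3 to 41.8 CPM in WT, against 23.4 to 29.6 CPM in KO (log2 fold change -0.46). The other Y-linked demethylase gene, *Uty*, had a log2 fold change of -0.06.

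PFC libraries gave measurements of the same genes that the striatal classes did not use. Of 109 even genes tested in PFC, 28 were up at an unadjusted p under 0.05 in edgeR's quasi-likelihood test (25.7%, against 4.73% of all genes) and 1 was down. Of 58 genes lower in STR, 12 were down in PFC (20.7%, against 6.5% of all genes) and 6 were up (10.3%, against 4.73%). Both shares were thus above those of all genes. Of the genes led by KO replicate 1, 13 could be tested in PFC and 4 were up, and of those high only in KO replicate 1, 24 could be tested and 4 were up. Of the genes low in KO replicate 1 alone, which KO replicates 2 and 3 did not share, 8 of 58 were up (13.8%) and 1 was down in PFC, so that a share of genes up above the background was not particular to the even genes. The labels do not say whether the STR and PFC libraries came from the same mice. The 4 even genes that passed upward at an FDR under 0.05 in PFC (0.163% of all genes did) were *Pcdh19*, *Esr1*, *Sdk1* and *Wdr6*, named here after their values were seen.

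*Pcdh19*, a protocadherin of synapses, was at 51.6, 69.2 and 63.1 CPM in WT, against 100.1, 83.5 and 108.2 CPM in KO in STR, with a log2 fold change of 0.67 (SE 0.13), and of 0.66 (SE 0.08, adjusted p = 0.00472 in the edgeR test) in PFC. *Esr1*, estrogen receptor alpha, had log2 fold changes of 1.03 (SE 0.24) in STR and 1.17 (SE 0.20, adjusted p = 0.0263 in the edgeR test) in PFC. *Wdr6*, a WD repeat protein, had 0.57 (SE 0.10) in STR and 0.44 (SE 0.08, adjusted p = 0.0286 in the edgeR test) in PFC. Its reads may include those of *Dalrd3* on the opposite strand. The STR values without KO replicate 1 were 0.64 for *Pcdh19*, 0.82 for *Esr1* and 0.48 for *Wdr6*. Of the genes lower in STR, *Phf8* was also lower in PFC at an FDR under 0.05, and *Rxfp1* was higher there.

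**Figure D5:**
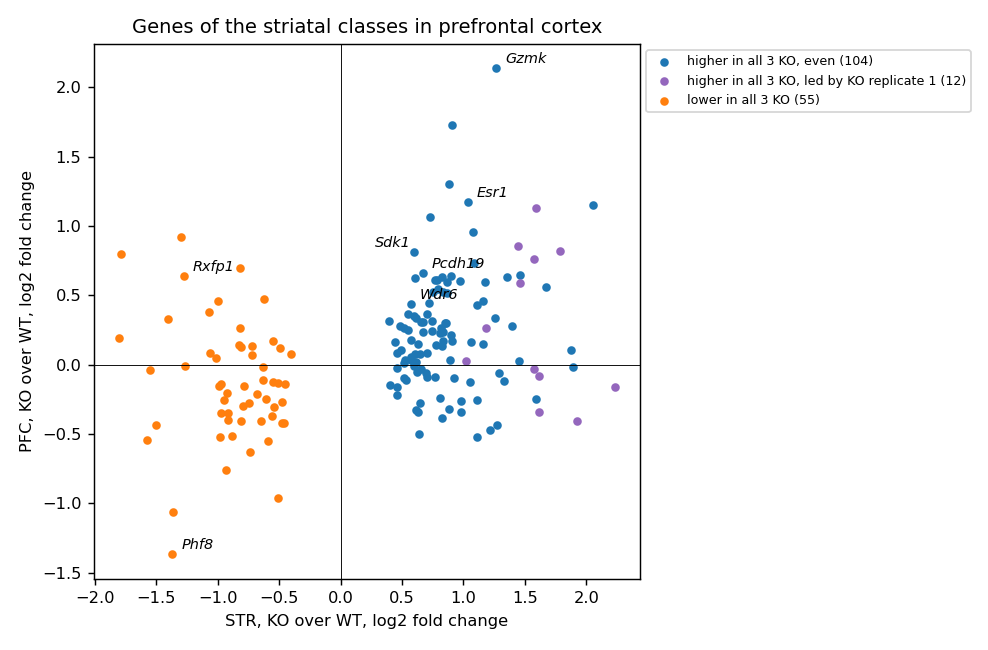
Log2 fold change, KO over WT, in STR (x axis) and PFC (y axis) of genes of 3 striatal classes that were tested in both regions (104 even, 12 led by KO replicate 1 and 55 lower genes). The x values chose the genes, so only the y axis is a new measurement, and *Rxfp1* lies on the other side of 0 from *Phf8* there.

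A test of the difference between the regions, STR minus PFC, found 1 gene at an FDR under 0.05 (0.00624% of 16028 genes, lower in STR), *Rxfp1*. In PFC it was at 38.1, 38.1 and 46.6 CPM in WT, against 66.6, 60.9 and 65.9 CPM in KO, with no overlap and in the opposite direction to STR. The difference of the log2 fold changes was -1.94 (SE 0.20, adjusted p = 0.00155 in edgeR's quasi-likelihood test for the interaction). It was -1.89 without KO replicate 1 (SE 0.23, adjusted p = 0.0122 in the edgeR test), and 3 genes then passed, *Rxfp1*, *Itih3* and *Pappa2*. For *Sbsn* and *Sstr2* the same test gave adjusted p-values of 0.647 and 0.386, which do not show that the regions act alike. At an unadjusted p under 0.05 it found 3.89% of genes with a higher and 2.51% with a lower fold change in STR.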

How the data were processed

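RNA-seq libraries of ventral striatum were prepared with a TruSeq RNA kit, aligned by the authors with STAR to mm10 after CASAVA 1.7, and counted per gene with HTSeq on Ensembl release 75 genes. The authors deposited these raw counts, 1 value per gene and library. The strand setting used for the brain libraries is not given in the sources used here, so antisense partners cannot be told apart. The table lines for reads on no gene (9.38% to 15.4% of reads), ambiguous reads and multiply aligned reads were left out of library sizes and tests. PFC counts were used for comparison, and the cultured cells were not used here.

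Genes were filtered with edgeR's filterByExpr, scaled by TMM, and tested with the quasi-likelihood test (edgeR 4.0.16, limma 3.58.1, R 4.3.3) on the 6 STR libraries with genotype as the term, at a Benjamini-Hochberg FDR of 0.05. The likelihood ratio and exact tests of edgeR, DESeq2 1.42.0, other filters and scalings, a fit of both regions, a replicate block and leaving out each library were alternatives. The difference between regions was tested as an interaction over 12 brain libraries. The script was tested on simulated data. Classes used all 16541 genes with at least 10 counts in a library, with a pseudocount of 0.5 CPM. Gene coordinates, exons and symbols came from GENCODE M21, which matched 37607 of 39179 identifiers and 99.7% of the counts.

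Genes named are *Phf8*, *Otp*, *Sim1*, *Oxt* and *Avp*, the gene of the interaction test, members of the gene lists and genes from further sets. One set was the 10 higher and 10 lower genes with the smallest p-values and no overlap between genotypes. The other was the 10 of each class with the largest ratio (with a mean of at least 2 CPM for even and lower genes). Not every gene of these sets is named: *C1ql2*, *Cbln1* and *Ppp1r17* of the led genes, for example, are not described. Others, such as *Bdnf*, *Nr2f2*, *Tac2*, *Uncx*, *Ucn3*, *Lhx5*, *Itih3* and the class genes called in PFC, were chosen after their values were seen. The comparison and the lists were chosen with earlier results of these data known. The class of genes low in KO replicate 1 alone, the pituitary list, the interaction without KO replicate 1 and the classes with a library left out were added after seeing the data.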

Additional observations from a re-analysis of the deposited data

Results flagged for a closer look

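*Rxfp1* differed between regions: the log2 fold change, KO over WT, was -1.28 in STR and 0.64 in PFC, and the difference of -1.94 (SE 0.20) passed edgeR's quasi-likelihood test for the interaction, with 3 of 3 KO libraries below every WT library in STR and 3 of 3 above in PFC. It was the 1 gene of 16028 to pass. With 3 libraries per group, single libraries were not tested for lying apart.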

How the results depend on the processing

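The count of 0 genes at an FDR under 0.05 in STR also came from RLE size factors, a filter of 10 counts in every library and a fit without robust estimation. It was 27 with no filter, 104 with edgeR's exact test, 94 with the likelihood ratio test, 60 with DESeq2 and 13 with STR and PFC fitted together, and 0 to 2 when each library was left out (2 without WT replicate 1, 1 without KO replicate 3). Without KO replicate 1, DESeq2 called 13 and edgeR's exact test 39. The log2 fold change of *Phf8* stayed between -1.47 and -1.20, and it passed with no filter (-1.37), the exact test (-1.37), the likelihood ratio test (-1.37), DESeq2 (-1.37) and both regions together (-1.37). The cause of these differences was not tested.

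Same-numbered WT and KO libraries did not deviate together (correlations of 0.06, -0.02 and 0.13), so the numbers were not taken to pair them. With a replicate block 8 genes passed, *Gal*, *Oxt*, *Lhx5*, *Gpr165*, *AI606473* and *Lhx8* up and *Phf8* (-1.38) and *Cplx3* down, and the interaction test again called 1. That test called 2 with no filter, 19 with DESeq2 and 3 without STR KO replicate 1, a fit added after seeing the data.

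Class sizes followed their limits. Even genes numbered 1199 without a fold limit and 22 at a fold of 1.5, led genes 12 at 1.5 and 13 with KO replicate 1 at a fold of 3, genes high only in KO replicate 1 21 at that fold, lower genes 976 and 6, and genes low in KO replicate 1 alone 40 with a pseudocount of 1 and 18 at a fold of 3. Leaving out a library gave 218 to 526 genes raised in all KO libraries left (298 to 526 beyond 1.5 times the full count) and 144 to 340 lowered. Without KO replicate 1 the 218 shared 164 with the 180.

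Directions of named genes turned when a library was left out: *Gh* ranged from -1.59 (without KO replicate 1) to 2.77, *Neurod6* from -1.03 to 0.020 and *Prss12* from -0.86 to 0.066 (both highest without KO replicate 1), and *Ly6g6e* from -0.59 to 0.62, negative without WT replicate 1 (-0.13), WT replicate 3 (-0.15), KO replicate 2 (-0.23) or KO replicate 3 (-0.59) and with the block (-0.32). Of 744 comparisons over 51 named genes, 619 kept direction and side of the threshold. Depth limits low genes: 3 counts stood for 0.345 to 0.433 CPM.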

Other observations

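Genes within 10 Mb of *Phf8* on chromosome X had 14 up and 1 down of 83 tested at an unadjusted p under 0.05 in edgeR's quasi-likelihood test. Over all genes 5.67% were up and 3.02% down. The median log2 fold change of these 83 genes was 0.10, or 0.08 without KO replicate 1. Their summed level was 4934 to 5006 CPM in WT and 5380, 4927 and 5625 CPM in KO replicates 1 to 3, so that KO replicate 2 was below the WT libraries and the others above.

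Interneuron genes had 2 up and 1 down of 9, with *Calb2* (calretinin) at 0.83 and *Npy* (neuropeptide Y) at -0.25 on the log2 scale. Genes of dopamine signalling had 2 up and 0 down of 12, *Ddc*, the decarboxylase that makes dopamine and serotonin, at 0.63 and *Slc6a3*, the dopamine transporter, at 0.96, and a median of 0.01. Oligodendrocyte precursor genes had 2 up of 6, *Pdgfra* (0.32) and *C1ql1* (0.47), and ependymal genes 1 of 4, *Rarres2* (0.52). None of these genes was called by the quasi-likelihood test of edgeR, which called 0 genes in all. At an unadjusted p under 0.05, 878 genes (5.67%) were up and 468 (3.02%) down.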
